A study of Oryza sativa with 6 samples.

Results

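The rice β-glucosidase genes numbered *BGLU1* to *BGLU38* were followed in leaves of wild-type (WT) and MADS29OX rice. A gene was taken as a member when its symbol or a synonym in the rice gene table was BGLU plus a number, which gave 31 genes of 39387 in the table. Of these, 27 had at least 1 probe set of their own on the array, with 39 probe sets in all, among 17905 genes so represented. No probe set was listed for *BGLU2*, *BGLU4*, *BGLU21* and *BGLU24*, which were not analysed here. The name *BGLU1* is also a synonym of *BGLU7* (Os3bglu7), and is used below for Os1bglu1.

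Total RNA came from the third and the fourth leaf, counted from the flag leaf, of *Oryza sativa* subsp. indica var. PB1, with 3 WT and 3 MADS29OX samples on 6 Affymetrix arrays. MADS29OX plants express the *OsMADS29* cDNA, which encodes a B-sister MADS-box factor of the seed, from a ubiquitin promoter that is active in most tissues. These plants were stunted and flowered early, with small and thin leaves, so that the transgene and the size or age of the leaf cannot be told apart. The series calls the samples of each group biological replicates, without saying which MADS29OX lines or plants they came from. The p-values below therefore measure the spread between these samples only.

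β-Glucosidases of glycoside hydrolase family 1 remove a terminal glucose from small molecules and short sugar chains. Plants store many compounds as inactive glucosides, among them monolignols for lignin, defence compounds and conjugates of hormones, and a β-glucosidase can set the active compound free. Some members of the family transfer the sugar to another acceptor instead of water. The rice family is large and lies partly in tandem groups: 17 of the 31 genes had another member as the next protein-coding gene in the gene table.

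The arrays were uniform in scale, with medians from 5.951 to 5.997, and between 21.6% and 21.9% of probe sets reached 16 on each array. The signal of *OsMADS29* was 6.70, 6.37 and 6.64 in WT and 2016, 1788 and 3590 in MADS29OX leaves. Of 7 green leaf markers, 6 were tested and *RBCS1* was below 16 on all arrays. In the comparison described below *CAB2R*, *PORB* and *RCABP69* were called higher in MADS29OX leaves (log2 fold changes of 1.46, 1.13 and 1.09) and *PSAG* lower (-1.05), while *rca* and *rbcS* were not called. Of all tested genes 5.05% were called higher and 5.03% lower. The summed signal of the 7 was 22280 to 22723 in WT and 24263 to 33114 in MADS29OX leaves, most of it from *rca* and *rbcS*. Of 9 seed markers 7 were below 16 on all arrays, and *GLB1* and *GLUA-2* were measured in both groups. The summed signal for the list was 272 to 279 in WT and 223 to 258 in MADS29OX leaves. The markers were matched by gene name, which does not settle whether this *GLB1* is a seed gene. *GLUA-2* read 75.1, 77.0 and 74.5 in WT and 61.5, 65.6 and 54.6 in MADS29OX leaves. Of 6 flower markers 4 were below 16 on all arrays, and the sums were 101.1 to 105 and 59.5 to 75.0. *MADS16* read 71.7, 68.5 and 67.0 in WT and 28.4, 38.8 and 23.0 in MADS29OX leaves, where it was called lower. Both *GLUA-2* and *MADS16* had been listed as genes that leaves should lack, yet both were above 16 on all arrays. The part of these marker levels in the results below was not tested. In RNA of whole leaves, fewer cells of a type and less RNA per cell cannot be told apart.

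A gene was called expressed in a group when its brightest probe set had an intensity of 16 or more on all 3 arrays. By this measure 7 of 27 members were expressed in WT leaves (25.9%, against 48.4% of all genes) and 7 in MADS29OX leaves (25.9%, against 47.0%). *BGLU5*, *BGLU16*, *BGLU22*, *BGLU31*, *BGLU32* and *BGLU36* were expressed in both groups, *BGLU13* met the limit in WT and *BGLU12* in MADS29OX leaves. Another 4 genes, *BGLU7*, *BGLU9*, *BGLU26* and *BGLU27*, reached 16 on 1 or 2 MADS29OX arrays and on no WT array. The remaining 15 genes stayed below 16 on all arrays in each of their probe sets.

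**Figure D1:**
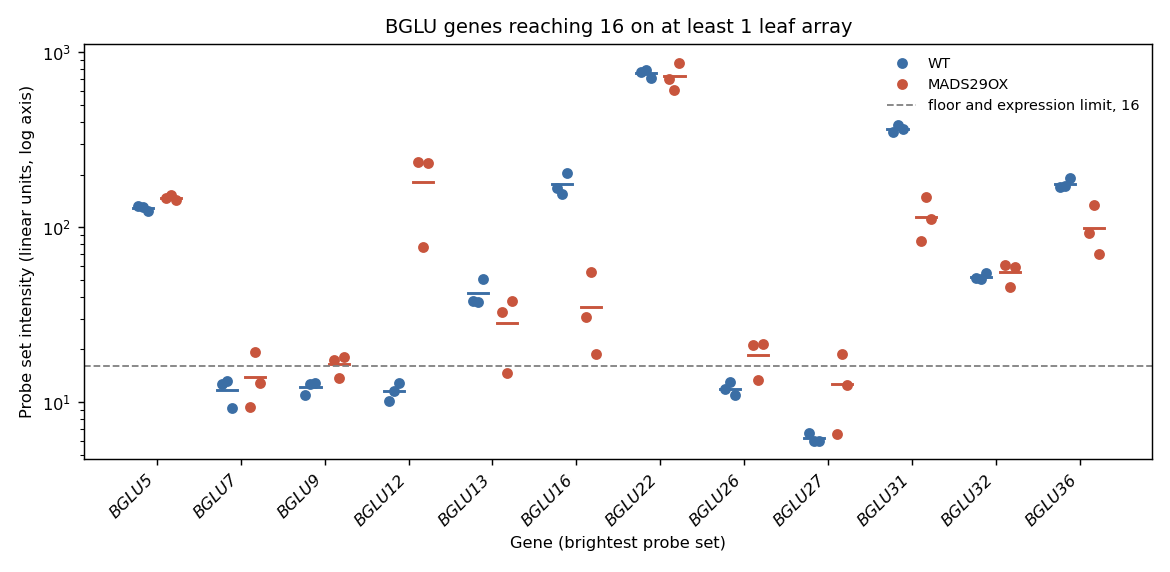
Probe set intensity (linear units, log axis) of the 12 BGLU genes that reached 16 on at least 1 array, with 1 point per array (3 WT, 3 MADS29OX) and a bar at the group mean. The MADS29OX points of *BGLU5*, *BGLU9*, *BGLU12* and *BGLU26* lie above their WT points, with those of *BGLU9* and *BGLU26* close to 16. The MADS29OX points of *BGLU16*, *BGLU31* and *BGLU36* lie below their WT points.

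For the comparison of MADS29OX with WT leaves, values below 16 were raised to 16, log2 was taken and limma was fitted to all 14238 probe sets that reached 16 on at least 1 array. A gene was called where the fitted change reached 2-fold with a p, adjusted by the Benjamini-Hochberg method, no higher than 0.05. Of the 12 members tested, 1 was higher (*BGLU12*) and 2 were lower (*BGLU16* and *BGLU31*) in MADS29OX leaves, against a background of 10.1% of the 10045 tested genes called in either direction. The background was 5.05% for higher and 5.03% for lower genes. Counted by probe set, 4 of the 15 tested for the family were called, against 9.9% of all tested probe sets. Of these 4, 2 read the same gene, *BGLU16*, and do not count as separate members. Of the 12 tested members 5 (*BGLU7*, *BGLU9*, *BGLU12*, *BGLU26* and *BGLU27*) entered the test through MADS29OX arrays alone, where they were higher, so no direction is read from the counts over the family.

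**Figure D2:**
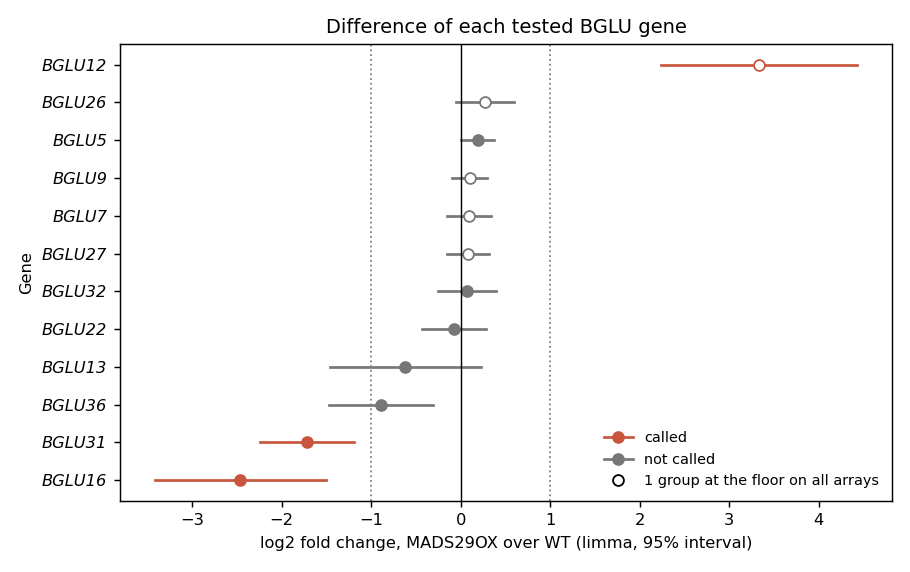
The log2 fold change of the 12 tested BGLU genes, MADS29OX over WT, with the 95% interval from limma (3 arrays per group), where dotted lines mark 2-fold and open points mark genes with 1 group below 16 on all arrays. *BGLU12* stands at 3.34, *BGLU31* at -1.72 and *BGLU16* at -2.46, and the intervals of the other genes reach inside 2-fold.

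*BGLU12* (Os4bglu12, LOC4336145) encodes an enzyme that in rice acts on short sugar chains and on the glucosides of salicylic acid and of tuberonic acid, a jasmonate derivative. Its signal was 10.1, 11.6 and 12.8 on the WT arrays and 236, 76.9 and 232 on the MADS29OX arrays. The groups did not overlap, and the lowest MADS29OX array was MADS29OX replicate 2. *BGLU12* was at least 10.1-fold higher in MADS29OX leaves (limma adjusted p = 0.00457), which is 3.34 ± 0.45 (SE) or more in log2. It entered the test through MADS29OX arrays alone, and its WT values, all raised to 16, added no spread to this SE and p. With no floor, where the WT values kept their spread, the log2 fold change was 3.82 (limma adjusted p = 0.0013). The exact permutation test (2-sided) gave p = 0.1 for this gene, as for *BGLU16* and *BGLU31* below, the lowest p that 3 samples per group can reach.
The other probe set of *BGLU12* gave signals of 6.10 to 6.83 on the 6 arrays, so that the call rests on 1 of its 2 probe sets. The mean of both had a log2 fold change of 1.67 and was still called (limma adjusted p = 0.00522). In this mean the other probe set, raised to 16 on all arrays, adds no change and lowers the value by construction. The gene was no longer called with 16 added to each value of all probe sets, in place of floor and filter (limma adjusted p = 0.0722). Nor was it called with the probe sets below 16 on all arrays kept in the fit (adjusted p = 0.112). That fit held 43020 probe sets with no spread, each raised to 16 on all arrays, and adjusted over more tests. How much of the lost call comes from this was not tested.

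*BGLU13* is the next gene to *BGLU12*, and its product was shown in rice to hydrolyse glucosides of tuberonic acid, salicylic acid and a gibberellin. It had signals of 38.0, 37.5 and 50.3 in WT and 32.6, 14.7 and 37.9 in MADS29OX leaves. The groups overlapped, with MADS29OX replicate 2 the lowest array. The log2 fold change was -0.62 (95% interval -1.46 to 0.22, adjusted p = 0.241), which leaves room for a fall of over 2-fold. Its other probe set lay between 5.57 and 5.60.

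*BGLU16* (Os4bglu16, LOC4336389) belongs to the clade of rice enzymes that hydrolyse monolignol glucosides such as coniferin, from which lignin precursors are released. Its signal was 168, 155 and 204 in WT and 30.6, 55.4 and 18.9 in MADS29OX leaves. Each MADS29OX array was below each WT array. *BGLU16* was 5.50-fold lower in MADS29OX leaves (limma adjusted p = 0.00783), a log2 fold change of -2.46 ± 0.39 (SE) and rank 38 from the lowest change among all tested genes.
A second probe set of this gene, with signals of 95.5, 93.8 and 109 in WT and 20.1, 42.8 and 13.7 in MADS29OX leaves, was also called (log2 fold change of -2.05 ± 0.36, limma adjusted p = 0.0113). The brighter probe set is of the kind that can cross-hybridize with other transcripts (suffix _x_at), while the second is not. As for *BGLU12*, adding 16 to each value (adjusted p = 0.0593) or keeping all probe sets in the fit (adjusted p = 0.157) ended the call.
*BGLU18*, the next gene to *BGLU16*, encodes another monolignol β-glucosidase. Its signal of 5.75 to 6.85 was below 16 on all arrays. *BGLU14*, placed in the same clade, was at 5.74 to 6.87.

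*BGLU31* (Os9bglu31, LOC4347545) encodes a transglucosidase, which in rice moves glucose between acyl glucose esters of phenolic acids and hormones. Its signal was 352, 384 and 364 in WT and 83.3, 149 and 111 in MADS29OX leaves. The groups did not overlap, and the highest MADS29OX array was again MADS29OX replicate 2. *BGLU31* was 3.29-fold lower in MADS29OX leaves (limma adjusted p = 0.00345), a log2 fold change of -1.72 ± 0.21 (SE) and rank 149 from the lowest. *BGLU31* had 1 probe set, so its call rests on that alone. Keeping all probe sets in the fit ended the call (limma adjusted p = 0.0873).
*BGLU32*, the next gene, had signals of 51.5, 50.3 and 54.6 in WT and 60.8, 45.5 and 59.3 in MADS29OX leaves, with overlapping groups and a log2 fold change of 0.07 (95% interval -0.25 to 0.40, adjusted p = 0.726). This signal came from a probe set that can read several similar transcripts (suffix _s_at), and the other probe set of *BGLU32* lay between 5.98 and 7.68. *BGLU33*, which follows *BGLU32*, was at 5.84 to 5.87 on the 6 arrays. The difference in change between *BGLU31* and *BGLU32* was not tested.

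*BGLU36* (Os11bglu36, LOC4351127) is the rice counterpart of *SFR2*, which in *Arabidopsis* remodels galactolipids of the chloroplast envelope under freezing. Its signal was 169, 173 and 191 in WT and 92.2, 135 and 70.5 in MADS29OX leaves. The groups did not overlap. The log2 fold change of -0.89 ± 0.24 (SE), with a limma adjusted p of 0.0416, passed the adjusted p but not the 2-fold limit, so the gene was not called. With it 4 of 12 members passed the adjusted p alone, against 26.6% of all tested genes.
Without MADS29OX replicate 2 it was called (log2 fold change of -1.14, adjusted p = 0.00371), as it was with array weights (-1.08, adjusted p = 0.00593), while the adjusted p was 0.114 to 0.138 with any 1 WT array left out, 0.0847 without MADS29OX replicate 1, 0.0660 without MADS29OX replicate 3 and 0.0775 with the replicate number as a block. It was also above 0.05 with the probe sets averaged (0.0829), with 16 added to each value (0.244) and with all probe sets kept in the fit (0.394). A second probe set had 67.1, 69.0 and 71.1 in WT and 62.5, 61.2 and 38.1 in MADS29OX leaves (log2 fold change of -0.39, adjusted p = 0.218), and the third lay between 7.42 and 12.3.

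For *BGLU22* and *BGLU5*, as for *BGLU32* above, the 95% interval stayed well inside 2-fold in both directions. *BGLU22* had signals of 771, 790 and 717 in WT and 709, 609 and 871 in MADS29OX leaves. The groups overlapped and the log2 fold change was -0.07 (95% interval -0.43 to 0.28, adjusted p = 0.744 from limma). *BGLU5* had signals of 132, 131 and 124 in WT and 146, 152 and 143 in MADS29OX leaves, which did not overlap. Its log2 fold change of 0.19 (95% interval 0.01 to 0.37, adjusted p = 0.118) did not pass the test, and its second probe set, at 117, 116 and 119 in WT and 121, 157 and 112 in MADS29OX leaves, overlapped. In all 5 of the 12 tested members had groups that did not overlap after values below 16 were raised to 16, against 45.9% of all tested genes.

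The 4 genes that reached 16 on some MADS29OX arrays remained close to this limit. *BGLU26*, whose product has β-mannosidase activity in rice, had signals of 11.8, 13.0 and 11.0 in WT and 21.2, 13.4 and 21.4 in MADS29OX leaves. *BGLU9* had 10.9, 12.7 and 12.8 in WT and 17.4, 13.6 and 18.1 in MADS29OX leaves. For both, replicates 1 and 3 of MADS29OX were above 16 and replicate 2 was below it.
*BGLU7*, which encodes an enzyme active on short glucose chains of cell walls, had 12.7, 13.2 and 9.27 in WT and 9.32, 19.4 and 12.8 in MADS29OX leaves. *BGLU27* had 6.69, 6.02 and 6.02 in WT and 6.56, 18.9 and 12.5 in MADS29OX leaves. For these genes replicate 2 was the highest MADS29OX array. None of the 4 was called by limma (adjusted p = 0.184, 0.409, 0.543 and 0.571 in the order given), and with values raised to 16 their fitted log2 changes, 0.08 to 0.28, are small by construction. With no floor the log2 fold changes were 0.62 for *BGLU26*, 0.43 for *BGLU9*, 0.19 for *BGLU7* and 0.89 for *BGLU27* (limma adjusted p = 0.0634, 0.0774, 0.643 and 0.107). *BGLU26* passed the limma adjusted p, though not 2-fold, without MADS29OX replicate 2 (0.41, adjusted p = 0.00872) and with array weights (0.35, adjusted p = 0.0331). Its WT values, all raised to 16, had no spread in these fits, and replicate 2 was its only MADS29OX array below 16. These p-values are therefore not read as support for a change.

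The 15 members below 16 on all arrays were *BGLU1*, *BGLU3*, *BGLU6*, *BGLU8*, *BGLU10*, *BGLU14*, *BGLU18*, *BGLU19*, *BGLU20*, *BGLU25*, *BGLU28*, *BGLU30*, *BGLU33*, *BGLU34* and *BGLU38*. The signals of their brightest probe sets ran from 5.36 to 13.7, and those of 12 of them stayed under 7 on each array. *BGLU10* had the highest single value, 13.7 on MADS29OX replicate 3, beside 9.11 to 9.46 on the other arrays. *BGLU3* was at 8.94 and 7.81 on MADS29OX replicates 1 and 3 and at 5.89 to 6.13 elsewhere. *BGLU20* was at 7.67 to 8.98. Such signals are near the bottom of the scale, and no change was tested for these genes.

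**Figure D3:**
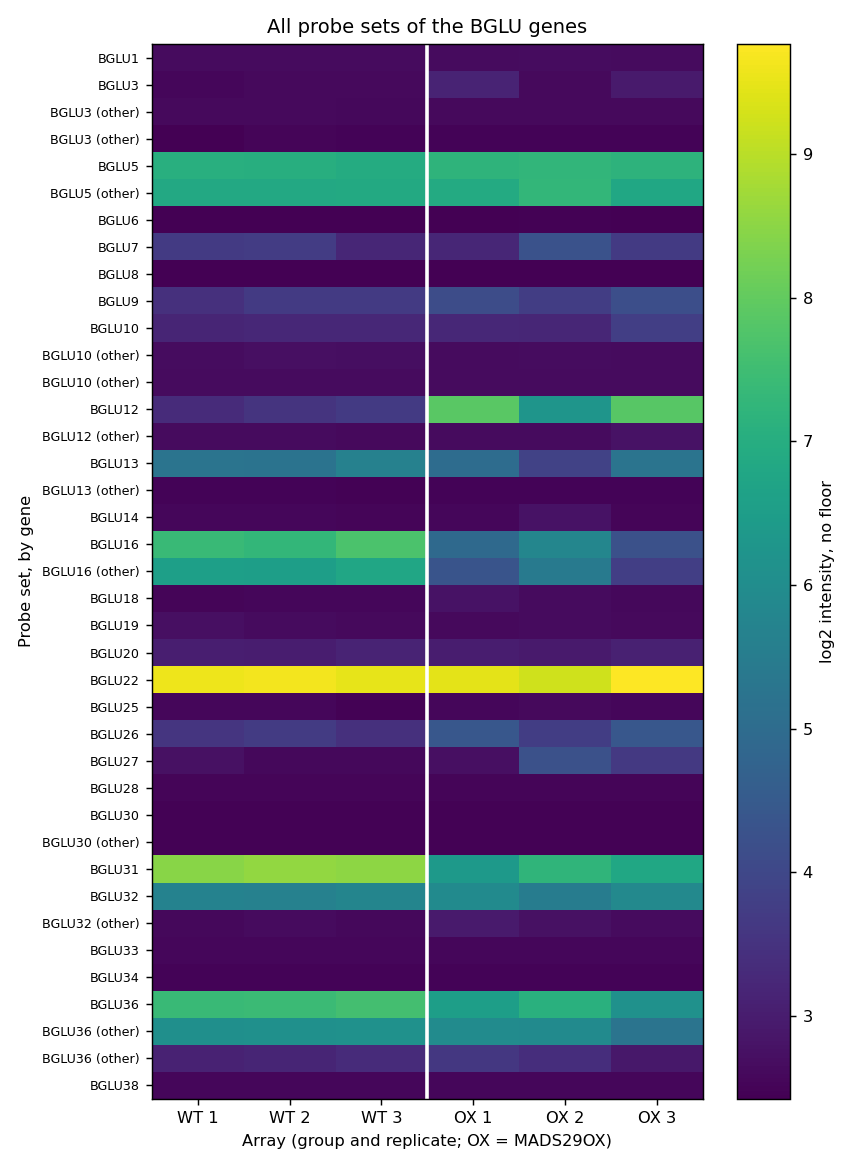
The log2 intensity, with no floor, of all 39 probe sets of 27 BGLU genes on the 3 WT and 3 MADS29OX arrays, in the order of the gene numbers, with each gene's brightest probe set first and the others marked. Colours compare arrays within a row, since probe sets differ in brightness for reasons other than transcript level. The 2 rows of *BGLU16* fade together in MADS29OX leaves, while 1 of the 2 rows of *BGLU12* brightens.

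The MADS29OX arrays differed among themselves for most measured members. Of 6 members at 16 or more on all arrays, 5 had a wider spread of log2 values in MADS29OX than in WT leaves, with *BGLU5* the exception, against 87.2% of all such genes. The median SD of log2 values over these 6 members was 0.07 in WT and 0.34 in MADS29OX leaves, beside 0.08 and 0.24 over all such genes.
MADS29OX replicate 2 was the array closest to the WT mean for each of the 3 called members. For *BGLU12* the log2 differences from the WT mean were at least 3.88, 2.26 and 3.86 in replicates 1, 2 and 3, as its WT arrays were all below 16. For *BGLU16* they were -2.51, -1.66 and -3.21. For *BGLU31* they were -2.14, -1.30 and -1.72.
*BGLU36*, which was not called, had -0.95, -0.40 and -1.33. Replicate 2 was also the closest array for 47.2% of all 1012 called genes, against 32.1% for replicate 1 and 15.9% for replicate 3, and 4.74% had ties. *OsMADS29* had its lowest MADS29OX signal in replicate 2 (1788) and its highest in replicate 3 (3590). With 3 arrays no relation between the 2 was tested.

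**Figure D4:**
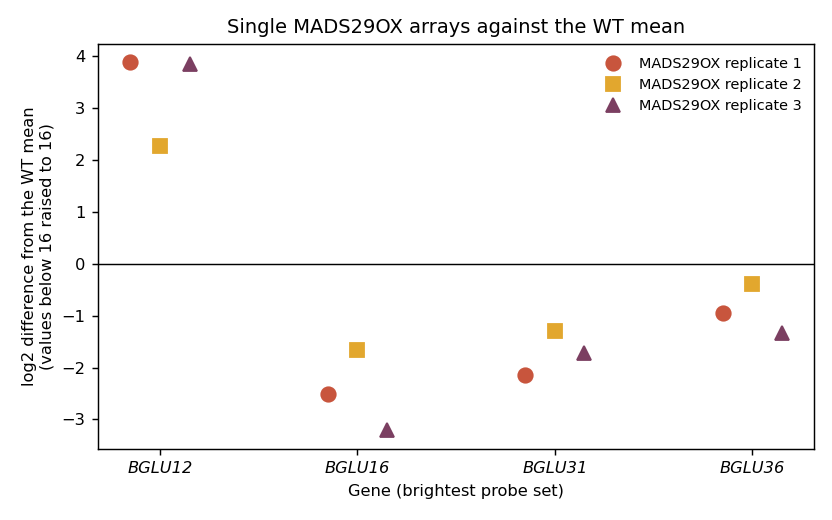
The log2 difference of each MADS29OX array from the WT mean, with values below 16 raised to 16, for the 3 called BGLU genes and *BGLU36*. In each gene the square of replicate 2 lies closest to 0, for example at 2.26 in *BGLU12* beside 3.88 and 3.86, which are lower bounds since its WT values were all raised to 16.

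Genes that act beside these enzymes were read from lists of gene names. Of 13 genes of the monolignol pathway 7 were tested, 1 of them higher and 1 lower, against the 10.1% of all tested genes called. *CAD3*, of the cinnamyl alcohol dehydrogenase family, had signals of 2414, 2435 and 2340 in WT and 446, 828 and 481 in MADS29OX leaves. *CAD3* was 4.26-fold lower (limma adjusted p = 0.00277, log2 fold change of -2.09 ± 0.24 SE), and, as for *BGLU16*, the highest of its MADS29OX arrays was replicate 2. Keeping all probe sets in the fit ended this call (adjusted p = 0.0776).
*4CL4*, which encodes a 4-coumarate:CoA ligase, had 66.2, 63.5 and 69.5 in WT and 145, 197 and 179 in MADS29OX leaves. Its groups did not overlap and it was 2.60-fold higher (adjusted p = 0.00146). The other 5 tested genes of the pathway were not called.

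Of 34 jasmonate genes 22 were tested, 2 of them higher and 2 lower, against 5.05% and 5.03% of all tested genes. No WT array reached 16 for 9 of the 22, which entered the test through MADS29OX arrays alone, so no direction is read over the list. *JAR1*, whose enzyme joins jasmonate to isoleucine to give the active hormone, had signals of 155, 155 and 144 in WT and 57.7, 57.2 and 60.1 in MADS29OX leaves. The groups lay far apart with little spread, and *JAR1* was 2.59-fold lower (limma adjusted p = 0.000291, log2 fold change of -1.37 ± 0.08 SE). *JAZ2*, a repressor of jasmonate responses, was below 16 on the WT arrays and at 111, 181 and 98.7 in MADS29OX leaves. It was at least 7.84-fold higher (limma adjusted p = 0.000759), where the WT values, all raised to 16, added no spread.
The receptor gene *COI1B* was higher (log2 fold change of 1.09, adjusted p = 0.00302) and *COI1* lower (-1.07, adjusted p = 0.0247). With a WT array removed *COI1* was not called (adjusted p of 0.0846 to 0.0933 over the 3 cases). Without MADS29OX replicate 2 or 3 its change was under 2-fold (-0.89 and -0.97), as was that of *COI1B* without MADS29OX replicate 1 (0.96). With all probe sets kept in the fit neither was called (adjusted p = 0.309 for *COI1* and 0.0642 for *COI1B*), nor was *COI1* with 16 added to each value (adjusted p = 0.170).

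Among 12 other glycosidase genes of cell walls, 2 were tested and 1 was called higher, against 5.05% of all tested genes. *GLU1*, which encodes an endo-1,4-β-glucanase, had signals of 16.01, 10.3 and 12.2 in WT and 29.1, 39.7 and 33.1 in MADS29OX leaves. It was called higher (limma adjusted p = 0.00291, log2 fold change of 1.07 with 2 of 3 WT arrays below 16), but stayed under 2-fold without MADS29OX replicate 2 (0.96). It was not called with 16 added to each value (0.79, adjusted p = 0.0512) or with all probe sets kept in the fit (adjusted p = 0.0615). *GLU2* overlapped between groups and was not called (log2 fold change of -0.32, adjusted p = 0.445).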

How the data were processed

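For each array the authors deposited 1 intensity per probe set (57381 with 123 controls), already on a common linear scale. How background, normalization and summary were done is not given in the sources used here. All 6 arrays were used, without further scaling.

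Groups and replicate numbers came from the sample titles. After setting values below 16 to 16, log2 values of the 14238 probe sets reaching 16 on at least 1 array were fitted in limma 3.58.1 (R 4.3.3; lmFit, eBayes) with group as the only term. Benjamini-Hochberg adjustment covered all of them. A gene took its brightest probe set by the mean of 6 arrays, among the 22436 probe sets with 1 gene in the platform annotation. That annotation gave several genes for 95 probe sets and did not list 34727. The gene table, of assembly ASM3414082v1, was read with Python 3.11.15 for names and neighbours, and no coordinates are given, since the array names no build. No sequences are shown.

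The members and lists were chosen with earlier results of these data known. Each member is named, and in the other lists the called genes are named, or the 2 with the highest mean where none was called. *GLU2* was named after its values were seen. A list of glucosyltransferases was not used, since names did not settle its genes. The small number of arrays limits the precision, most of all for signals near 16. The fit was tested on simulated data with changes placed in brighter probe sets. It called 38.4% of the 2-fold and 83.5% of the 3-fold changes, so changes near 2-fold can be missed. A true 2-fold change lies on the fold limit itself, so some of it is missed whatever the number of arrays. Probe sets near 16 in WT were given no change, so the simulation does not cover them. Alternatives covered the floor, the filter, normalization, weights, the fold limit, the choice of probe set, the replicate number and leaving out each array. An unadjusted p, and the alternatives for genes outside the family, were added after the data were seen.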

Additional observations from a re-analysis of the deposited data

How the results depend on the processing

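The counts of called BGLU genes, 1 higher and 2 lower, changed with the treatment of low signals. With log2 of the value plus 16 limma called 0 higher and 1 lower, and with no filter on low values it called 0 higher and 0 lower, while 1 was higher and 2 were lower at an unadjusted p under 0.05 in both settings. These settings test all 57258 probe sets, and over all genes they called 431 and 352 in place of 1012. With no filter 43020 of the probe sets were constant at 16 and had no spread, and what this did to each call was not tested. With each array left out in turn the counts were 1 to 1 higher and 2 to 3 lower, the additional gene being *BGLU36* without MADS29OX replicate 2. An expression limit of 8 gave 13 expressed genes in WT and 12 in MADS29OX leaves in place of 7 each, and a limit met on at least 1 array gave 12 in MADS29OX leaves. Directions turned for genes near 0: *BGLU22* had a log2 fold change of 0.038 with array weights, and leaving out single arrays gave -0.208 to 0.050 for *BGLU22* (positive without MADS29OX replicate 2) and -0.0049 to 0.204 for *BGLU32* (negative without MADS29OX replicate 1). *BGLU12* lay between 3.06 and 3.87, *BGLU16* between -2.86 and -2.08 and *BGLU31* between -1.93 and -1.51 when each array was removed in turn, and the calls of all 3 held. Deviations of samples with the same replicate number had correlations of 0.034, -0.045 and -0.127 for numbers 1, 2 and 3. Those of samples with unlike numbers had -0.096 to 0.178. These values gave no sign of pairing, but with 3 samples per group they cannot settle whether the numbers pair the samples. With the replicate number as a block the counts were 1 higher and 2 lower, and 946 genes in all. With a gene's probe sets averaged, *BGLU36* had -0.43.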
